A study of Mus musculus with 16 samples.

Results

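The genes described here encode RNA polymerase II (Pol II), the Mediator complex and the general transcription factors. They were taken from the deposited table by symbol, as every gene whose name begins with Polr2, with Gtf2, or with Med or Taf followed by a digit, and they number 70 of the 9614 genes in the table. There were 13 Polr2, 25 Med, 15 Gtf2 and 17 Taf genes. The name pattern also took in 3 genes of the TFII-I family, 3 of SL1, the TAF complex of Pol I, and 2 TAF-like subunits of SAGA. A further 12 known members of these families, among them Med18, Med26, Taf5 and Taf9, were not analysed here. RNA was measured by polyA RNA-seq in 16 libraries. The cells were macrophages grown from the bone marrow (BMDM) of male C57BL/6 mice aged 8 weeks. Mice of both genotypes carried LysM-Cre, a Cre recombinase driven by the lysozyme promoter of myeloid cells, with NELF-B wt/wt alleles (WT, 3 mice) or NELF-B fl/fl alleles (NELF-B KO, here KO, 3 mice). NELF-B is a subunit of the negative elongation factor, which holds paused Pol II. BMDM were left untreated (U, 2 libraries per genotype), given LPS, the endotoxin of Gram-negative bacteria, at 10 ng/ml (L, 3 per genotype), or given that dose of LPS with 100 nM dexamethasone (Dex), a ligand of the glucocorticoid receptor (LD, 3 per genotype), for 1 hr. Each LD library has an L library of the same mouse. The 3 mice of a genotype carry the letters A, B and C here, and mouse C had no untreated library.

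Pol II transcribes messenger RNA but does not recognise promoters by itself. TFIID, built from TATA-binding protein and the TAFs, together with TFIIA and TFIIB marks the start site, TFIIF accompanies the polymerase, and TFIIE and TFIIH open the DNA. Mediator, arranged as head, middle, tail and a detachable kinase module, relays signals from DNA-bound factors, including NF-kB and the glucocorticoid receptor, to this machinery. This machinery is needed in nearly every cell. The comparisons below ask how far the 70 mRNAs moved within 1 hr of LPS, of Dex with LPS, and after NELF-B loss.

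Values are log2 CPM, reads scaled by the authors to the size of each library, and differences are on that log2 scale. A gene is called where the limma p-value, adjusted over all 9614 genes by the Benjamini-Hochberg method, is under 0.05. The libraries held 25000000 to 49700000 recovered reads on the listed genes, and the members had a median of 810 reads per library. The lowest was Med7 at 34 reads. Of 7 macrophage markers, 6 were in the table, with a summed level of 12.44 to 12.84 log2 CPM. Csf1r was at 11.36 to 11.93, Cd68 at 10.03 to 10.89 and Itgam at 9.31 to 10.82. Lower were Fcgr1 at 7.36 to 8.76, Mertk at 6.22 to 8.04 and Lyz2 at 4.31 to 6.33. Adgre1 was not in the table. None of the B cell or dendritic markers was in the table. Cd4, the 1 of 3 T cell markers in the table, lay between 2.37 and 5.89. In untreated WT mouse B it was above Lyz2 (5.86 against 4.31). Both genotypes carried Cre driven by the lysozyme promoter, and its part in the level of Lyz2 was not tested. S100a8, the 1 of 5 neutrophil markers in the table, lay between 2.45 and 5.38. The summed level of 2 fibroblast markers was 4.93 to 5.37 in untreated WT and 5.92 to 6.29 in KO with LPS + Dex, and its part in the results was not tested. The untreated library of WT mouse A stood apart, with a correlation across genes of 0.83 to 0.909 with the other 15, which correlated at 0.924 to 0.993 among themselves. It held the highest or the lowest of the 16 values for 48 of the 70 members (68.6%) and for 68.6% of all genes. Values without this library are given beside the calls and levels that it moved most. In BMDM cultures, fewer cells of a type and less RNA per cell cannot be told apart.

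Start-site sequence was examined for the members with a matched promoter. RefSeq promoters (GRCm38.p6) were matched for 59 of the 70 members, with 71 start sites. The 250 bases before each start were searched on both strands. The remaining 11 members, among them Taf7, had no matched promoter and were not searched. Sequences are shown for Gtf2a1 and Gtf2a2, the subunits of TFIIA that moved in opposite directions under Dex in both genotypes, and for Taf8, the TFIID subunit with the smallest adjusted p under Dex in WT. They run 5' to 3' towards the start site, and capitals mark a motif match on either strand.
Gtf2a1: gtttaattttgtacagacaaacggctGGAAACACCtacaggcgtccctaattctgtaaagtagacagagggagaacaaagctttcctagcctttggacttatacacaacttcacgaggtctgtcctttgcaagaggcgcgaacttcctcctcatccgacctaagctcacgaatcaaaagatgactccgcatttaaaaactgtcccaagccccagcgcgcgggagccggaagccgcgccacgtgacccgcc
Gtf2a2: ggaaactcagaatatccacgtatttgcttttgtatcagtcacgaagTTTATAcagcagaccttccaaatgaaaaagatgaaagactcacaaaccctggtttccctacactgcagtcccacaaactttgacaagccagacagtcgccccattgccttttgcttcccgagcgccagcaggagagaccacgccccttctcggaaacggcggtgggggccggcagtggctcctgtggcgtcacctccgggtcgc
Taf8: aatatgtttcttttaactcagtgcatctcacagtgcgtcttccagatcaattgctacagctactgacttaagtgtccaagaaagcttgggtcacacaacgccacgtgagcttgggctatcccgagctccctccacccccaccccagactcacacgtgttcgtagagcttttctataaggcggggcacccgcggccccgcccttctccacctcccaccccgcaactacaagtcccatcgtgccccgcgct
The first lies at chr12:91590488-91590737 (minus strand), the next at chr9:70012298-70012547 (plus strand) and the last at chr17:47502293-47502541 (minus strand). The match in Gtf2a1, which begins 224 bases before the start, is to GGNNTTTCC, a form of the NF-kB site read on the other strand. Gtf2a2 has TATAAA on the other strand, 204 bases before the start, and Taf8 has none of the 8 motifs searched. GGNNTTTCC was in 3 of the 71 member promoters (4.23%), those of Gtf2a1, Med10 and Taf1c, and in 4.93% of all 32851 promoters. ACANNNTGT, the core of the glucocorticoid receptor's palindrome, was in 1 (1.41%), that of Med10, against 5.84% of all. TGANTCA (AP-1) was in 3 (4.23%) against 6.75%, and TGACGTCA (CRE), which Med21 carries, in 3 (4.23%) against 1.55%. CCGGAAGT (ETS) was in 10 (14.1%) against 2.88%, AAGATGGCG (YY1) in 1 (1.41%) against 0.606%, TATAAA in 10 (14.1%) against 12.4% and CCAAT in 26 (36.6%) against 33.8%. The median GC content of the member promoters was 57.6%, against 52.4% of all promoters, with a median of 18 CpG dinucleotides against 6. These matches describe letters in the window and were not tied to binding.

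Levels of subunits can be compared only per length, here as log2 CPM minus the log2 of the longest coding transcript in kb. In untreated WT BMDM the members spanned 6.45 log2 units per kb, from Polr2e at 6.16 ± 1.17 (SD, n = 2), a subunit shared by the nuclear polymerases, to Med7 at -0.29 ± 0.58, a subunit of the Mediator middle. The top of this order rests on the library of WT mouse A. In WT mouse B alone the span was 5.53 and the highest member was Med15 of the Mediator tail at 5.65, with Polr2e at 5.33, and over all 16 libraries Med15 was again highest at 5.7, with Polr2e at 5.52. Med7 was lowest each time, at 0.12 in WT mouse B and 0.64 over all 16 libraries.

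Within Pol II the lowest gene was Polr2c at 2.87 ± 0.58 log2 per kb in untreated WT, while in WT mouse B and over all 16 libraries it was Polr2l, at 2.0 and 2.21. Polr2a, the catalytic subunit, was at 4.79 ± 1.08 in untreated WT and at 5.33 ± 0.08 (n = 3) under LPS. Its untreated WT libraries stood at 4.02 and 5.55 log2 per kb, and the latter, of mouse B, was the highest Pol II value of that library.

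Mediator subunits spanned 5.66 log2 units per kb in untreated WT. Med15 was at 5.29 ± 0.52 and Med14, the backbone on which the modules meet, at 1.52 ± 1.0 log2 per kb, the highest and lowest of backbone and tail. In the head Med11 was highest at 5.37 ± 1.11 and Med17 lowest at 3.25 ± 0.07, and in the middle Med21 was highest at 4.43 ± 0.41. In the kinase module Med12 was at 2.55 ± 1.3, Med13l at 2.36 ± 1.32 and Med13 at 1.17 ± 1.42 log2 per kb, with SDs larger than the distance between Med13 and Med13l, its paralog. In WT mouse B the same genes of each module were highest and lowest, and Med12, Med13l and Med13 were at 3.47, 3.3 and 2.18.

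Among the Gtf2 genes, Gtf2f1 of TFIIF was at 5.64 ± 1.04 log2 per kb and Gtf2i of the TFII-I family at 5.17 ± 0.20. Gtf2b, the single-subunit factor TFIIB, was at 5.15 ± 0.54, so the order of these genes does not exceed the spread. In WT mouse B they were at 4.9, 5.31 and 4.76. Gtf2f2 was at 3.97 ± 0.63. TFIID genes lay lower, from Taf6 at 3.78 ± 0.07 to Taf7 at 1.34 ± 0.08, and over all 16 libraries Taf3 was the lowest of them at 1.75, with Taf7 at 2.19. In the TFIIH core, which opens promoter DNA, Gtf2h3 was lowest at 1.69. Gtf2h5 was highest at 4.24, but Gtf2h1 was higher in WT mouse B (4.25 against 3.53) and over all 16 libraries (4.17 against 3.79). The TFIIA subunits Gtf2a2 and Gtf2a1 were at 3.98 and 3.22, the TFIIE subunits Gtf2e2 and Gtf2e1 at 2.89 and 2.11 (2.52 and 2.49 in WT mouse B), and in the TFII-I family Gtf2ird2 was lowest at 1.55 log2 per kb. In SL1, the TAF complex of Pol I, Taf1d was at 3.78 and Taf1c at 2.11, and of the TAF-like subunits of SAGA, Taf6l was at 4.64 and Taf5l at 0.93. Polr2m stood at 5.03 ± 0.54 and Taf15, an RNA-binding TAF, at 4.77 ± 0.39.

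**Figure D1:**
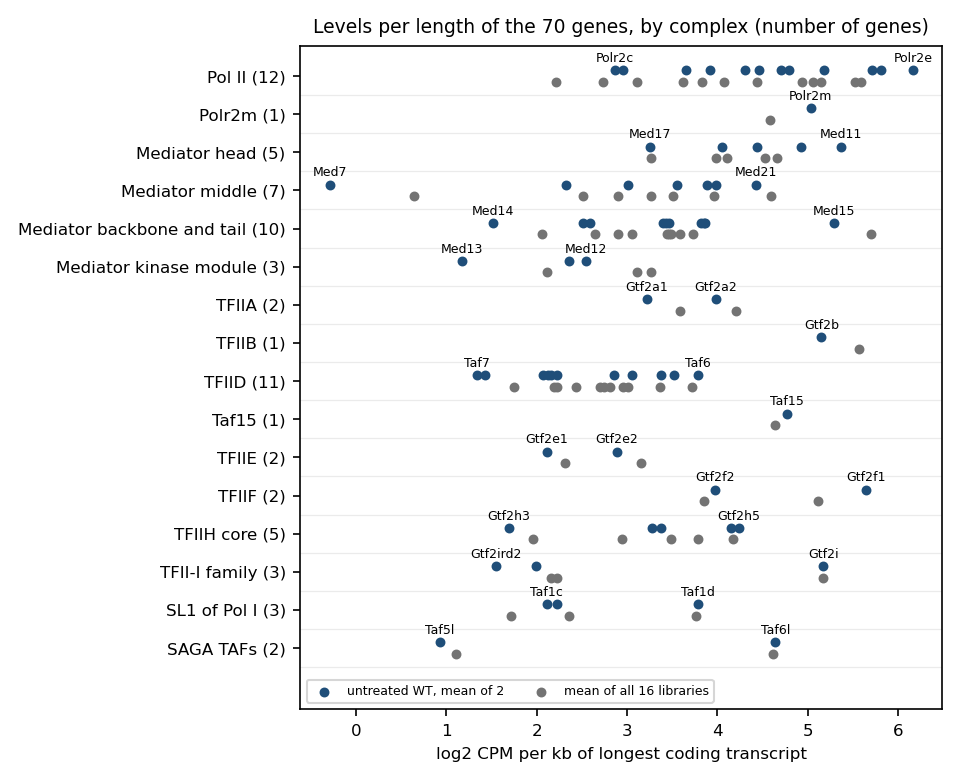
Level per length (log2 CPM per kb of the longest coding transcript) of each of the 70 genes, by complex, as the mean of the 2 untreated WT libraries (blue) and of all 16 libraries (grey), with the highest and lowest gene of each complex in untreated WT named. Polr2e is at the right at 6.16 and Med7 at the left at -0.29 in untreated WT, and Med15 is furthest right (5.7) among the means of all 16 libraries.

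Most members varied little. Over the 15 libraries other than the untreated library of WT mouse A, the distance from the lowest to the highest library had a median of 0.51 log2 CPM over the members and of 0.62 over all genes. Med8, a head subunit, was the steadiest, between 5.18 and 5.36 log2 CPM, and Med24 of the tail lay between 5.37 and 5.57. Only 5 of the 70 members moved by more than 1 log2 unit over these libraries, beside 2170 of the 9614 genes. They were Med13 (5.11 to 6.29), Gtf2b (5.30 to 6.57), Med7 (1.35 to 2.81), Taf7 (3.01 to 4.53) and Gtf2ird2 (2.92 to 4.72).

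LPS raised Taf7 and Gtf2ird2 in both genotypes. Taf7 is a TFIID subunit that contacts Taf1, and lies on chromosome 18 from 37640491 to 37644204 (GRCm38) with 2 exons. Its level was 3.12 and 3.01 log2 CPM in untreated WT mice A and B, and 4.30, 4.25 and 4.53 under LPS in the 3 WT mice. In KO it was 3.17 and 3.34 untreated, and 4.21, 4.22 and 4.04 under LPS. Every LPS library was above every untreated library in both genotypes. The rise was 1.3 ± 0.13 (SE) in WT, 2.46-fold (limma adjusted p = 2.1e-05), and 0.90 ± 0.13 in KO, 1.87-fold (limma adjusted p = 0.000583), and without the untreated library of WT mouse A the WT rise was 1.35 (limma adjusted p = 0.000132).

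Gtf2ird2, a TFII-I family gene of chromosome 5 (134184019 to 134224355), stood at 3.37 and 3.32 log2 CPM in the untreated WT libraries and at 4.07, 4.18 and 4.14 under LPS. The untreated KO libraries were at 2.92 and 3.08, and the LPS libraries at 4.16, 4.04 and 4.44. The groups did not overlap in either genotype. The rise was 0.78 ± 0.15 in WT (1.72-fold, limma adjusted p = 0.00622) and 1.21 ± 0.15 in KO (2.32-fold, limma adjusted p = 0.000169). Gtf2ird2 shares 408 exon bases (6.6%) on the opposite strand with Ncf1, an NADPH oxidase subunit with a mean of 7.96 log2 CPM that rose by 0.48 ± 0.15 in WT (limma adjusted p = 0.0753, not called) and 0.27 in KO. The strand of the libraries was not stated, so reads of the shared bases cannot be assigned to either gene.

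In WT alone, Med22, a Mediator head subunit, and Taf1c, a subunit of the Pol I factor SL1, were called lower with LPS. Med22 went from 6.30 and 6.19 log2 CPM untreated to 5.73, 5.77 and 5.43 under LPS, with no overlap, a change of -0.60 ± 0.14 (limma adjusted p = 0.0183). Taf1c went from 3.92 and 3.68 to 3.21, 3.36 and 3.16, a change of -0.56 ± 0.14 (limma adjusted p = 0.0251). In KO their changes were -0.30 and -0.21 and were not called. Without the untreated library of WT mouse A the WT changes were -0.55 (limma adjusted p = 0.113) and -0.44 (limma adjusted p = 0.176), and without the LPS library of WT mouse C they were -0.50 and -0.52 (limma adjusted p = 0.0751 and 0.0893). Taf1c also lost its call without the LPS library of WT mouse A (-0.54, limma adjusted p = 0.0819). Taf1c shares 584 exon bases (16.7%) with the gene Dnaaf1 on the opposite strand.

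In WT, LPS thus changed 2 of 70 members upward (2.86%), beside 4.63% of all genes, and 2 downward (2.86%), beside 2.28% of all genes. In KO 2 members (2.86%) rose beside 2.92% of all genes, and 0 fell beside 1.09%. At an unadjusted limma p under 0.05 there were 26 members in WT (37.1%), beside 27.8% of all genes, and 5 in KO (7.14%), beside 9.14%. In KO voom, limma's fit for read counts, called 3 members (4.29%), beside 4.75% of all genes. The called counts are small and near the background. At an unadjusted limma p the WT share was above that of all genes, and this difference was not tested. With each library centred on its median, WT calls were 2 members upward and 5 downward, and 389 genes upward and 375 downward, in place of 445 and 219. Across the members the median change was -0.07 in WT and 0.02 in KO, and over all genes it was 0.02 and -0.01.

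Untreated and LPS libraries share mice A and B, and with the mouse as a block the fit called more members. In WT, 6 rose (8.57%) beside 8.61% of all genes, and 6 fell (8.57%) beside 5.18%. The added members that rose were Gtf2b (0.55, adjusted p = 0.0125), Gtf2a1 (0.56, 0.0297), Med13 (1.31, 0.0432) and Med13l (1.07, 0.0496), each with limma's adjusted p in the parentheses. Med4 of the middle (-0.54), Polr2d (-0.63) and Polr2i (-1.11) of Pol II and Taf8 of TFIID (-0.50) were added among those that fell. Without the untreated library of WT mouse A, the same fit gave smaller changes for Gtf2a1 (0.28, limma adjusted p = 0.034), Med13 (0.42, 0.0169) and Med13l (0.3, 0.021), which stayed called. Polr2d (-0.29, limma adjusted p = 0.151), Polr2i (-0.35, 0.101), Taf8 (-0.27, 0.0561) and Taf1c (-0.38, 0.087) lost their calls, while Gtf2e2 of TFIIE, Med21, Polr2c and Polr2g gained one. That fit thus called 12 members (17.1%), beside 14.9% of all genes, of which 8 were shared with the block on all libraries. In KO, 4 rose (5.71%) beside 4.65% of all genes and 1 fell (1.43%) beside 2.67%. Those that rose were Taf7, Gtf2ird2, Gtf2b (0.67, limma adjusted p = 0.00493) and Med21 of the middle (0.53, limma adjusted p = 0.0396), and the one that fell was Med22 (-0.32, limma adjusted p = 0.0393). Polr2i shares 325 exon bases (26.8%) on the opposite strand with Tbcb, a tubulin folding cofactor.

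Gtf2b, which bridges the promoter complex and Pol II, rose from the untreated library in each of the 4 mice that had both libraries. Its levels were 6.07 and 5.30 log2 CPM untreated in WT and 6.52, 5.98 and 6.41 under LPS, and in KO they were 5.81 and 5.50 untreated and 6.42, 6.24 and 6.57 under LPS. The WT groups overlapped because mouse A was high before LPS, and the KO groups did not. Without the block the changes were 0.62 ± 0.22 in WT (limma adjusted p = 0.113) and 0.75 ± 0.22 in KO (limma adjusted p = 0.1). Without the untreated library of WT mouse A the WT change was 1.00 (limma adjusted p = 0.0218).

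Polr2a, Med12 and Med13 showed how much the untreated library of WT mouse A weighs. Polr2a was at 6.77 log2 CPM in that library and 8.30 in mouse B, and at 8.10, 8.15 and 8.00 under LPS. Med12, the kinase module subunit that activates its cyclin-dependent kinase, was at 4.43 and 6.26 untreated and at 6.25, 6.29 and 6.11 under LPS. Only the library of mouse A was low. The WT changes of Polr2a (0.54 ± 0.30) and Med12 (0.87 ± 0.35) were not called (limma adjusted p = 0.244 and 0.137), and without that library they were -0.22 and -0.05. The 3 kinase module genes had a median WT change of 0.91, which was -0.03 without that library, and a median KO change of 0.30. Med13 changed by 2.28 in WT mouse A, 0.33 in mouse B, 0.49 in KO mouse A and 0.47 in KO mouse B.

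The same library was high for short members. Polr2l, a small shared subunit of the polymerases, was at 4.65 log2 CPM in it and between 2.42 and 3.24 in the other 15 libraries. Across the 70 members, the difference between the untreated WT libraries (mouse A minus mouse B) had a Spearman correlation with transcript length of -0.71, and over 9211 genes of -0.62. The same difference in KO gave -0.07 over the members. These correlations are descriptions across genes that share both libraries. All 10 members with a transcript over 5000 bases were lower in WT mouse A, with a median of -1.36, and 8 of 9 members under 1000 bases were higher, with a median of 0.92. Without this library 31 of the 70 members had a WT LPS change of the other sign, and the number over 1.5-fold went from 15 (21.4%, beside 21% of all genes) to 5 (7.14%, beside 11.7%). The 4 calls (5.71%, beside 3.94%) were then Taf7, Gtf2ird2, Gtf2b and Gtf2e2 (0.74, limma adjusted p = 0.0463). If mouse B's untreated library was left out, so that mouse A stood alone, 47 members were called (67.1%), beside 56.1% of all genes. The part of RNA quality in this pattern was not tested. Changes of sign were counted over the members alone. The untreated library of WT mouse A was extreme for 68.6% of the members and for 68.6% of all genes.

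**Figure D2:**
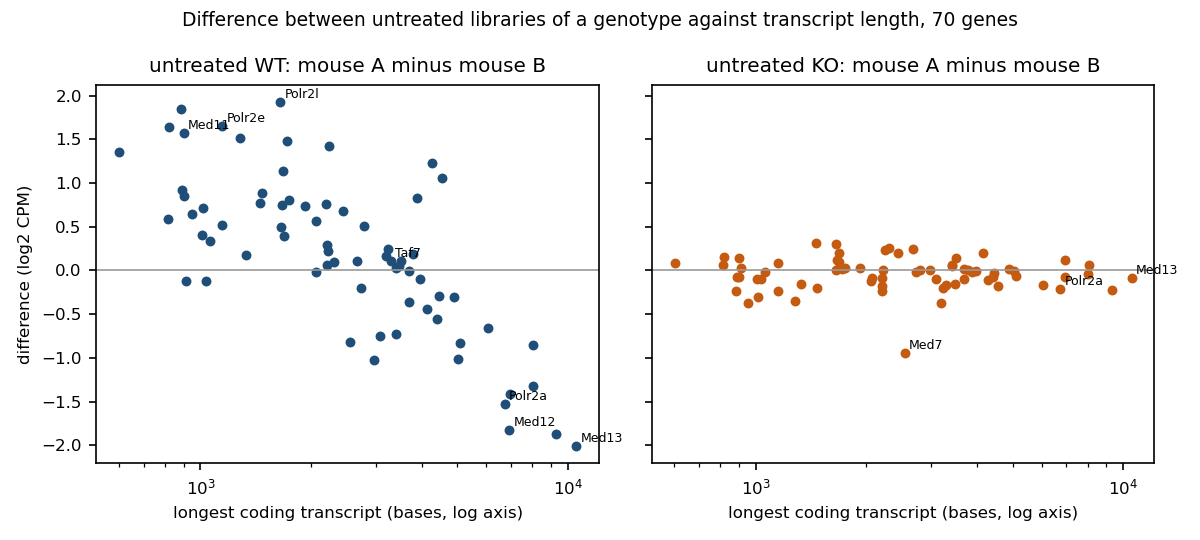
Difference in log2 CPM between untreated libraries of mouse A and mouse B against the longest coding transcript in bases (log axis) for the 70 genes, in WT (left) and KO (right). In WT, Med13 lies lowest and Polr2l highest, while KO values lie near 0 apart from Med7.

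The LPS response was not shown to differ between genotypes for any member. The interaction called 0 members and 0% of all genes, and at an unadjusted limma p under 0.05 it held 0 members beside 2.30% of all genes. With the mouse as a block and with voom, each run separately, it also called 0 members. The smallest unadjusted p-values were those of Taf7 (KO minus WT difference -0.39 ± 0.18), Polr2i (1.09 ± 0.51), Med29 of the tail (0.95 ± 0.45), Gtf2ird2 (0.43 ± 0.21) and Polr2h (0.63 ± 0.32), each with a limma adjusted p of 0.690. Without the untreated library of WT mouse B, 33 members were called (47.1%), beside 38.8% of all genes, and without that of mouse A, 0.

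Dex given with LPS changed 8 members in WT and 9 in KO, all but 1 by less than 1.5-fold. In WT, 4 rose (5.71%) beside 4.77% of all genes and 4 fell (5.71%) beside 5.65%. In KO, 5 rose (7.14%) beside 7.10% of all genes and 4 fell (5.71%) beside 6.99%. These shares are near the background. Of the called members, 7 were the same in both genotypes, where Gtf2a2, Gtf2ird2, Med7 and Taf8 were higher and Gtf2a1, Gtf2b and Med21 were lower. Taf7 was called in WT alone, and Med13 and Polr2g in KO alone. All these Dex values use the mouse as a block, and without it 0 members were called in either genotype. Of the 9614 genes, 74 were then called higher and 36 lower in WT, and 90 and 50 in KO.

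**Figure D3:**
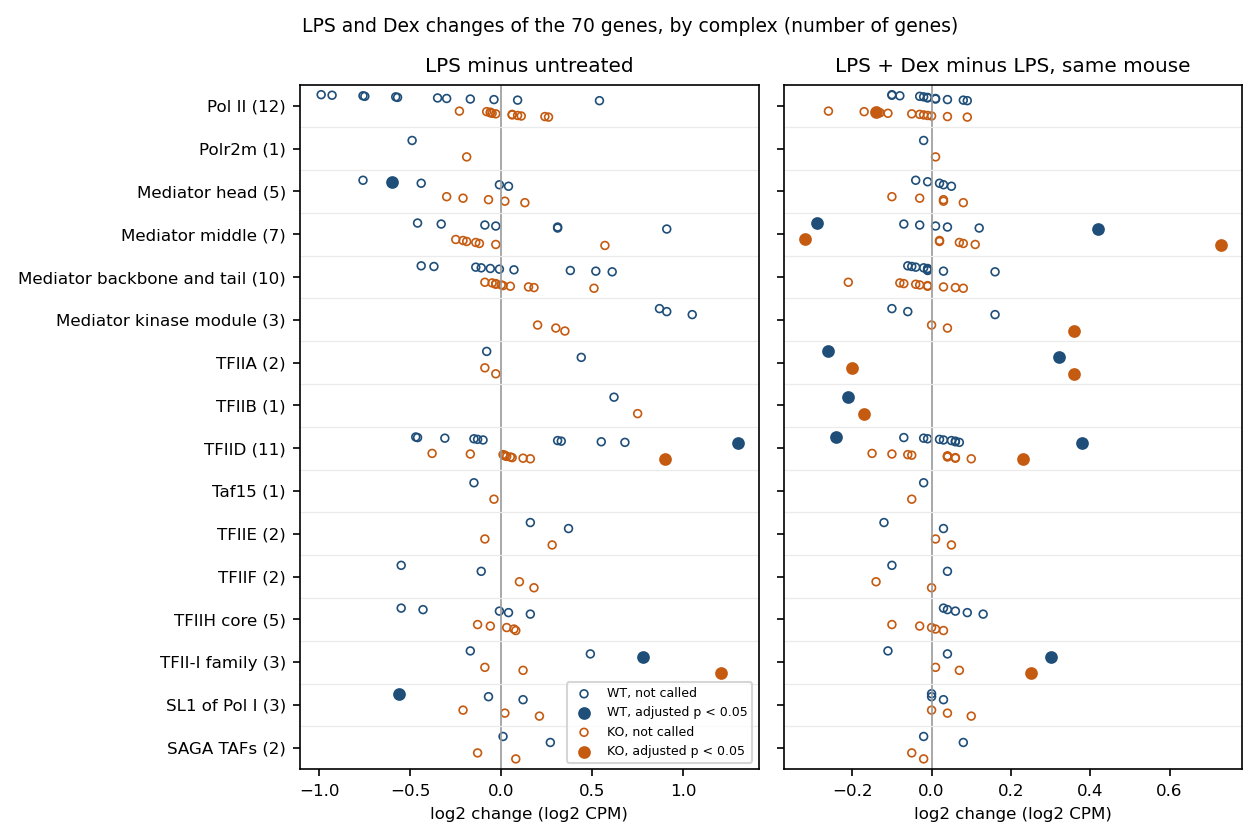
Log2 change of each of the 70 genes for LPS minus untreated (left) and for LPS + Dex minus LPS in the same mouse (right), by complex, in WT (blue) and KO (orange), with called genes filled. Both panels use the same LPS libraries. Taf7 in WT (1.3) and Gtf2ird2 in KO (1.21) lie furthest to the right for LPS, and Med7 for Dex. For LPS in WT the uncalled kinase module genes (0.87 to 1.05) lie to the right of Gtf2ird2 (0.78).

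The subunits of TFIIA, which steadies TATA-binding protein on the promoter, went in opposite directions under Dex. Gtf2a1, whose product is cleaved into the large subunits, was at 6.34, 6.4 and 6.04 log2 CPM under LPS in the WT mice (A, then B, then C) and at 6.06, 6.20 and 5.75 with Dex added. In KO it was at 6.46, 6.71 and 5.98 under LPS and at 6.35, 6.32 and 5.88 with Dex. Each mouse fell while the groups overlapped. The change was -0.26 ± 0.05 in WT (limma adjusted p = 0.0044) and -0.20 ± 0.05 in KO (limma adjusted p = 0.0174), which was -0.11 (limma adjusted p = 0.135) without the LPS library of KO mouse B. Without the LPS library of WT mouse C the WT change was -0.24 (limma adjusted p = 0.0549).

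Gtf2a2, the small subunit, was at 3.75, 3.99 and 4.11 log2 CPM under LPS in WT and at 4.03, 4.46 and 4.33 with Dex. In KO it was at 4.16, 4.28 and 4.28, and with Dex at 4.53, 4.56 and 4.72. All 6 mice rose, and in KO the groups did not overlap. The change was 0.32 ± 0.06 in WT (1.25-fold, limma adjusted p = 0.00302) and 0.36 ± 0.06 in KO (1.29-fold, limma adjusted p = 0.00108).

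Taf8, the TFIID subunit that carries Taf10 into the nucleus, rose with Dex in both genotypes. In WT it was at 4.78 and 4.27 log2 CPM untreated, at 4.05, 3.97 and 4.13 under LPS and at 4.41, 4.41 and 4.48 with Dex. In KO it was at 4.33 and 4.32 untreated, at 3.83, 4.02 and 3.99 under LPS and at 4.09, 4.22 and 4.22 with Dex. Dex and LPS groups did not overlap in either genotype. The Dex change was 0.38 ± 0.05 in WT (1.3-fold, limma adjusted p = 0.000266) and 0.23 ± 0.05 in KO (1.17-fold, limma adjusted p = 0.0107), and the KO call was lost without mouse A or mouse C (limma adjusted p = 0.0619 and 0.0681). The LPS change was -0.47 ± 0.14 in WT and -0.38 ± 0.14 in KO (limma adjusted p = 0.0571 and 0.245), and with the mouse as a block -0.50 and -0.40 (limma adjusted p = 0.0282 and 0.0986). Without the untreated library of WT mouse A the WT value was -0.22 (limma adjusted p = 0.474), and -0.27 (limma adjusted p = 0.0561) with the block.

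Gtf2ird2 went up with LPS and further with Dex. With Dex it was at 4.39, 4.42 and 4.48 log2 CPM in WT and at 4.44, 4.22 and 4.72 in KO, and each mouse was above its own LPS library. The Dex change was 0.30 ± 0.05 in WT (limma adjusted p = 0.00164) and 0.25 ± 0.05 in KO (limma adjusted p = 0.00554), and the KO value without mouse C was 0.23 (limma adjusted p = 0.0565). Its neighbour Ncf1 changed by 0.16 ± 0.04 in WT (limma adjusted p = 0.029) and 0.12 ± 0.04 in KO (limma adjusted p = 0.1).

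Gtf2b, Taf7 and Med21 were lower with Dex than with LPS alone. The LPS and Dex comparisons share the LPS libraries, so their values are set side by side only. Gtf2b was at 6.15, 5.88 and 6.24 log2 CPM with Dex in WT and at 6.22, 6.09 and 6.41 in KO. All 6 mice fell, by -0.21 ± 0.05 in WT (limma adjusted p = 0.00902) and -0.17 ± 0.05 in KO (limma adjusted p = 0.0316). Without mouse A the WT call was lost (-0.14, limma adjusted p = 0.0898), as was the KO call without any of the mice (limma adjusted p = 0.0712 to 0.143).

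Taf7 was at 4.01, 4.10 and 4.26 log2 CPM with Dex in WT and at 3.94, 4.12 and 3.97 in KO, below LPS in each mouse but above every untreated library. Its Dex change was -0.24 ± 0.06 in WT (limma adjusted p = 0.0215), lost without mouse A or C (limma adjusted p = 0.140 and 0.164), and -0.15 ± 0.06 in KO (limma adjusted p = 0.125, not called).

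Med21 and Med7, which pair in the hinge of the Mediator middle, moved apart. Med21 was at 4.53, 4.22 and 4.59 log2 CPM under LPS in WT and at 4.07, 4.03 and 4.37 with Dex, and in KO at 4.42, 4.6 and 4.74 and then at 4.21, 4.31 and 4.28. All 6 mice fell, and the KO groups did not overlap. The change was -0.29 ± 0.07 in WT (limma adjusted p = 0.0109) and -0.32 ± 0.07 in KO (limma adjusted p = 0.00471). It was -0.21 (limma adjusted p = 0.126) without WT mouse A and -0.25 (limma adjusted p = 0.0765) without KO mouse C. On the opposite strand Med21 shares 197 exon bases (5.6%) with Tm7sf3, at a mean of 5.22 log2 CPM, and 348 (9.9%) with the pseudogene Gm6654.

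Med7 was at 1.82, 1.57 and 2.52 log2 CPM under LPS in WT and at 2.17, 2.18 and 2.81 with Dex. In KO it was at 1.53, 1.66 and 2.18 and then at 2.61, 2.27 and 2.68. All 6 mice rose. The change was 0.42 ± 0.12 in WT (1.34-fold, limma adjusted p = 0.0478) and 0.73 ± 0.12 in KO (1.66-fold, limma adjusted p = 0.00113). The WT call was lost without any of the mice (limma adjusted p = 0.112 to 0.336). Med7 is the member with the fewest reads, and 609 of its exon bases (21.2%) are shared with the noncoding gene 2310031A07Rik on the opposite strand.

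**Figure D4:**
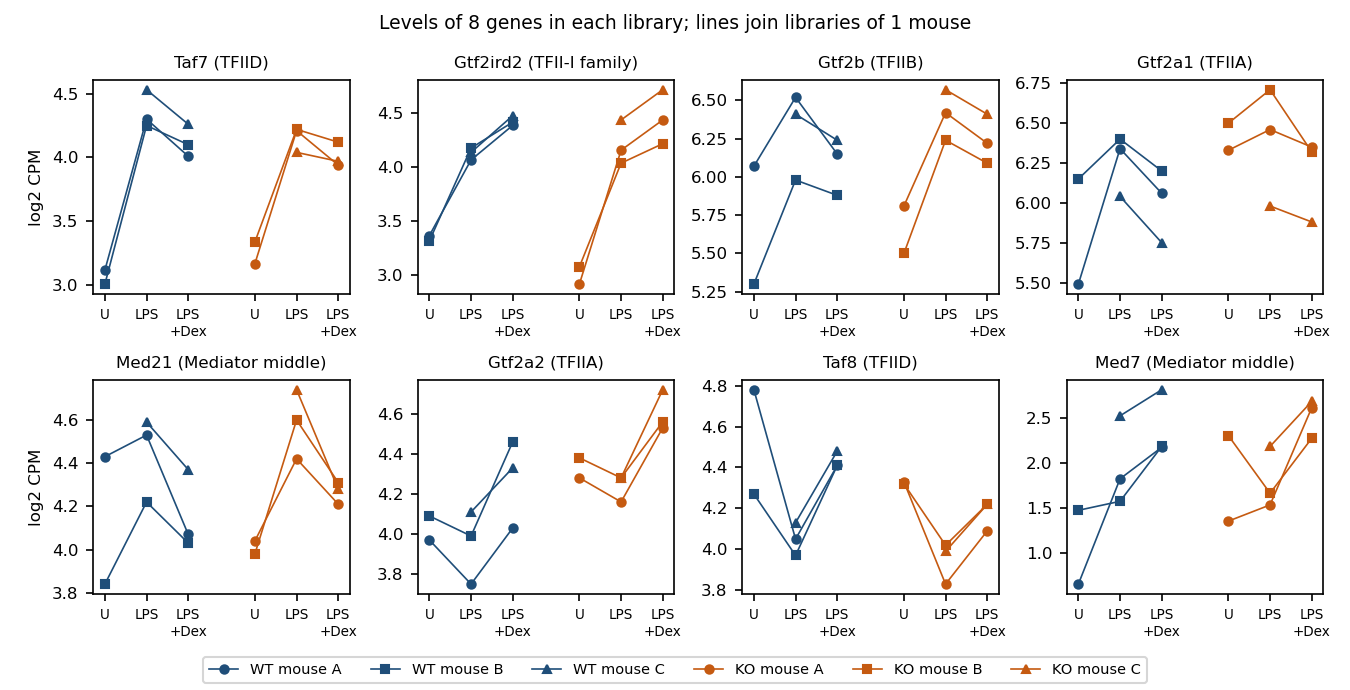
Log2 CPM of 8 genes in each library for WT (blue) and KO (orange), untreated (U), with LPS and with LPS + Dex, where a line joins the libraries of 1 mouse and the symbol gives the mouse. Taf7 and Gtf2ird2 rise with LPS in each mouse, and the last step is upward in all 6 mice for Gtf2ird2, Gtf2a2, Taf8 and Med7 and downward in all 6 for Taf7, Gtf2b, Gtf2a1 and Med21.

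Med13, which links the kinase module to the rest of Mediator, was at 5.69, 5.77 and 5.19 log2 CPM under LPS in KO and at 5.91, 6.29 and 5.52 with Dex, a change of 0.36 ± 0.06 (1.28-fold, limma adjusted p = 0.00179). In WT it was at 5.85, 5.90 and 5.11 and then at 5.86, 6.24 and 5.26, a change of 0.16 ± 0.06 (limma adjusted p = 0.163). Mouse C was the lowest of its group each time, by 0.53 to 0.80 below the mean of mice A and B. Polr2g, which forms the Pol II stalk with Polr2d, changed by -0.14 ± 0.04 in KO (limma adjusted p = 0.0249) and -0.08 ± 0.04 in WT (limma adjusted p = 0.272), and was lower in all 6 mice. Med13 shares 800 exon bases (7.4%) with Brip1os on the opposite strand.

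Members that were higher with Dex in all 6 mice numbered 7 (10.0%), beside 9.16% of all genes, and those that were lower in all 6 numbered 6 (8.57%), beside 10.4%. Besides the called genes these were Med4 and Med30 upward and Polr2e downward. The catalytic subunit Polr2a changed by -0.10 ± 0.04 in WT and -0.03 ± 0.04 in KO, Med1, the subunit that nuclear receptors contact, by -0.07 ± 0.04 and 0.02 ± 0.04, and Med12 by -0.10 ± 0.04 and 0.04 ± 0.04. None of these was called (lowest limma adjusted p = 0.182). The median Dex change of the members was 0 in both genotypes, as was that of all genes in KO, with -0.01 in WT.

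The Dex response of the members was not shown to differ between genotypes. The interaction called 0 members, beside 0.0104% of all genes, with voom also 0, and at an unadjusted limma p under 0.05 it held 3 members (4.29%), beside 6.96% of all genes. These were Taf1, the largest TFIID subunit (KO minus WT difference 0.17 ± 0.06), Polr2h, a shared polymerase subunit (-0.26 ± 0.10), and Med12 (0.14 ± 0.06), with limma adjusted p of 0.654, 0.671 and 0.676. Med13 (0.19) and Taf8 (-0.15) were next.

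Loss of NELF-B was checked first in the deleted gene. Nelfb was at 6.21 and 5.92 log2 CPM in untreated WT and 3.53 and 4.38 in untreated KO, between 5.59 and 5.76 in the LPS and LPS + Dex libraries of WT, and between 3.27 and 4.22 in those of KO. Every KO library was below every WT library, and KO mouse B was the highest KO mouse in each treatment. The difference was -2.11 ± 0.38 untreated, -2.02 ± 0.23 under LPS and -2.0 ± 0.23 under LPS + Dex (limma adjusted p = 0.889, 0.105 and 0.0889). With the mouse letter as a block these adjusted p-values were 0.00322, 0.043 and 0.0328. Of the fits with and without the block, even this gene passed the threshold only with it. The letters that this block uses are a weaker match between genotypes.

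No member was called for loss of NELF-B. In untreated BMDM limma called 0 members beside 0% of all genes, and at an unadjusted p under 0.05 it held 0 members beside 0.385%. Under LPS it called 0 members beside 0%, with 5 members (7.14%) at an unadjusted p under 0.05 beside 8.44% of all genes. Under LPS + Dex it called 0 beside 0%, with 6 (8.57%) beside 11.3%. With the letter block 0 members were called, beside 0.125% of all genes under LPS and 0.614% under LPS + Dex, and voom called 0 in each treatment. WT and KO did not overlap for 10 members under LPS (14.3%), beside 13.7% of all genes, and for 13 under LPS + Dex (18.6%), beside 17.8%.

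The members with the smallest p-values are given as uncalled values. Taf13, the TFIID partner of Taf11, was at 4.20, 4.03 and 3.77 log2 CPM in WT under LPS and at 4.67, 4.56 and 4.47 in KO, and under LPS + Dex at 4.02, 4.15 and 3.78 in WT and at 4.73, 4.58 and 4.55 in KO. KO was above WT with no overlap in both treatments. The difference was 0.57 ± 0.14 under LPS and 0.64 ± 0.12 under LPS + Dex (limma adjusted p = 0.254 and 0.172, and 0.088 and 0.0602 with the letter block). In untreated BMDM WT mouse A was at 4.49 and mouse B at 3.81, with KO at 4.62 and 4.42.

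Gtf2h3, a TFIIH core subunit, was at 3.08, 3.22 and 2.98 log2 CPM in WT under LPS and at 3.69, 3.55 and 3.83 in KO. The untreated libraries were at 3.16 and 3.05 in WT and at 3.75 and 3.50 in KO, and LPS + Dex gave 3.29, 3.04 and 3.13 in WT and 3.56, 3.54 and 3.66 in KO. All 8 KO libraries were above all 8 WT libraries. The difference was 0.52 ± 0.29 untreated, 0.60 ± 0.13 under LPS and 0.44 ± 0.11 under LPS + Dex (limma adjusted p = 0.889, 0.254 and 0.220).

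Med16, a tail subunit, was lower in KO. It was at 5.32, 5.52 and 5.45 log2 CPM in WT under LPS against 5.03, 5.11 and 5.12 in KO, and at 5.46, 5.33 and 5.45 against 4.90, 5.30 and 4.93 under LPS + Dex. The groups did not overlap, though KO mouse B came within 0.03 of the lowest WT library under LPS + Dex. The difference was -0.34 ± 0.10 and -0.37 ± 0.13 (limma adjusted p = 0.314 and 0.326). Also uncalled were Gtf2ird1 (-0.43) and Taf12 (0.32) under LPS, Taf1 (0.26) and Taf8 (-0.26) under LPS + Dex, and Gtf2a1 (0.60), Polr2h (-0.65), Taf2 (0.70) and Polr2i (-0.95) in untreated BMDM. Without the untreated library of WT mouse A the latter 4 were 0.27, -0.33, 0.2 and -0.13, and without that of mouse B 34 members were called (48.6%), beside 43.7% of all genes.

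Polr2a, Med1 and Med12 were not called. Polr2a was at 7.85, 8.00 and 7.84 log2 CPM in KO under LPS, a difference from WT of -0.18 ± 0.10. Med1 was at 5.68, 5.68 and 5.53 in WT and at 5.54, 5.50 and 5.36 in KO (-0.16 ± 0.10). Med12 was at 6.22, 6.20 and 6.19 in KO (-0.01 ± 0.09). The limma adjusted p-values were 0.731, 0.790 and 0.996, which does not show that the levels were equal.

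**Figure D5:**
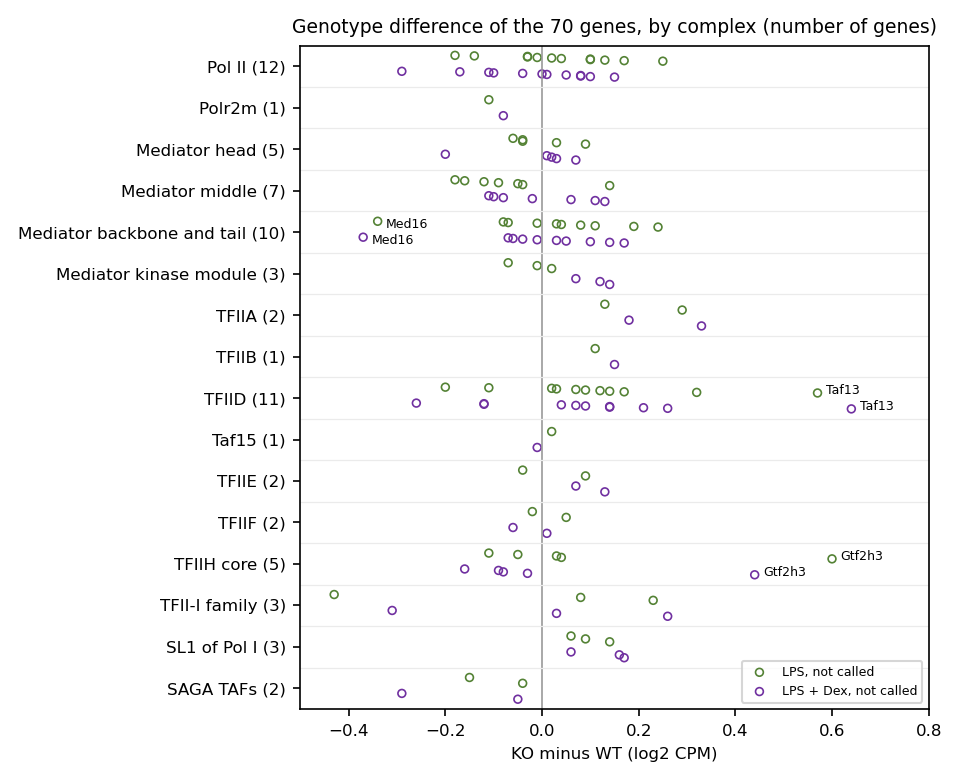
KO minus WT difference in log2 CPM of each of the 70 genes under LPS (green) and LPS + Dex (purple), by complex, with open symbols because none was called. Taf13 and Gtf2h3 lie furthest to the right, and Med16 to the left of the other tail genes.

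Subunits shared by Pol I, II and III (Polr2e, Polr2f, Polr2h, Polr2k and Polr2l) had a median LPS change of -0.75 in WT, which was 0.06 without the untreated library of WT mouse A, and of 0.06 in KO, and 0 of 5 were called in either, with limma or with the block. Polr2e was at 7.18 log2 CPM in the untreated library of WT mouse A and between 5.30 and 5.91 in the other 15 libraries. Their median Dex change was -0.02 in WT and -0.11 in KO. The shares of all genes called for LPS are given above, and 5 genes are few beside them.

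Partners outside the name pattern were not called, at thresholds whose shares of all genes are given above. The 10 partner genes, TATA-binding protein (Tbp) and its relative Tbpl1, the kinase module's Cdk8, Cdk19 and Ccnc and the TFIIH genes Cdk7, Ccnh, Mnat1, Ercc2 and Ercc3, had 0 calls for LPS, Dex or NELF-B loss. Tbp changed by 0.22 with LPS in WT and 0.09 in KO, and by 0.00 and 0.03 with Dex. Of 12 SAGA genes, Atxn7 rose with LPS in WT (0.74 ± 0.19, limma adjusted p = 0.0319), a call lost without the untreated library of WT mouse A (0.31, limma adjusted p = 0.269), and Trrap with Dex in KO (0.17 ± 0.05, limma adjusted p = 0.0334). Of the 15 Polr1 and Polr3 genes of the other nuclear polymerases, 0 were called without the block for LPS, and with it 1 was, Polr3a in WT (0.38, limma adjusted p = 0.0477), whose value without the untreated library of WT mouse A was 0.18 (limma adjusted p = 0.134).

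Changes of paralogs within the families are set side by side. Gtf2ird1 was at 3.69 and 4.05 log2 CPM untreated and at 4.44, 4.10 and 4.53 under LPS in WT, a change of 0.49 ± 0.17 (limma adjusted p = 0.0972). It rose by 0.75 in WT mouse A and 0.05 in mouse B, and without the untreated library of mouse A the change was 0.3. In KO it changed by 0.12 ± 0.17, beside calls for Gtf2ird2 in both genotypes. Med13l changed by -0.06 with Dex in WT and 0.00 in KO, beside 0.16 and 0.36 for Med13. Taf6 and its SAGA counterpart Taf6l changed by -0.13 and 0.01 with LPS in WT and by 0.02 and 0.08 in KO. The differences between paralogs were not tested.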

How the data were processed

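PolyA RNA from 16 BMDM libraries was sequenced as paired reads. The authors aligned them to mm10, took the reads unique to exons, scaled their counts by edgeR's weighted trimmed mean and deposited log2 CPM for 9614 genes, together with p-values and FDR of their own comparisons, which were not used. CASAVA 1.8, FastQC and edgeR are named in the submitters' processing notes. How low genes were filtered and the strand of the libraries were not given in the sources used here.

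The members and lists were chosen with earlier results of these data known. All genes were fitted with limma 3.58.1 (R 4.3.3, lmFit and eBayes with trend) on the deposited log2 values, with no pseudocount and no filter, since the files held no counts. LPS contrasts used all 16 libraries in 6 groups, Dex contrasts the 12 L and LD libraries with the mouse as a block, and NELF-B loss only the libraries of that treatment. Libraries of 1 mouse share its number in the labels, and their deviations from the group mean correlated across genes (r 0.78 to 0.94 for L and LD, 0.19 to 0.82 for U and L). The letters are a weaker match. The KO labels of mouse B and the untreated WT label of mouse B carry the same date-like string, which the other WT labels of mouse B lack. Labels of mouse C carry S numbers that differ. Mouse A remains, where the KO labels carry a date-like string and the WT labels none. Pairs of a letter correlated likewise under LPS and under LPS + Dex (r 0.44 to 0.76). Named were Polr2a, Med1, Med12, Nelfb, the 8 called members with the largest change per comparison or the 5 smallest unadjusted p-values where none was called, the highest and lowest member per complex, paralogs, shared subunits and partners. Other members named for a block, a range or an overlap were chosen after their values were seen.

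Reads were recovered from the equal steps of the deposited values: with 1 step as 1 read, 100.0% of the values under 3 CPM were whole (within 0.25 of a read). A floor of 3 reads is 0.065 to 0.136 CPM and covers counting error only. Positions, transcripts and exon overlaps are from GENCODE vM21 (GRCm38), promoters from RefSeq. Whether the cultures of a mouse were separate is not stated. Fits were tested on simulated data. Alternatives were the block, subsets of libraries, a filter on mean log2 CPM over 1, median centring, log2(CPM + 1), the study's thresholds (adjusted p under 0.1 and over 1.5-fold, 1.3-fold for Dex), another transcript length and leaving out each library. Voom on recovered reads the block without the untreated library of WT mouse A, and levels in WT mouse B alone or over all libraries were chosen after seeing the data. Python 3.11.15, numpy 2.4.6, pandas 2.3.3 and matplotlib 3.10.9 were used.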

Additional observations from a re-analysis of the deposited data

Results flagged for a closer look

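For 1 member the Dex change had opposite signs in the 3 mice of each genotype. The share of all genes with such signs was not counted, so the count is not read as particular to the members. Polr2h, a polymerase subunit, changed by 0.05, 0.15 and 0.08 log2 CPM in the WT mice and by -0.23, -0.15 and -0.14 in the KO mice. The KO minus WT difference was -0.26 ± 0.10 and did not pass the interaction test (limma adjusted p = 0.671).

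For 2 members the LPS change had opposite signs in the 2 mice of each genotype that had an untreated library. Here too the share of all genes was not counted. The KO minus WT differences were 0.73 for Gtf2f1 of TFIIF and 0.28 for Taf1d of SL1, and neither passed the interaction test (limma adjusted p = 0.690 for each). Both used the untreated library of WT mouse A, in which Gtf2f1 was at 7.16 log2 CPM, against 5.64 to 6.13 in the other 15 libraries.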

How the results depend on the processing

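Libraries of 1 mouse are paired by its number. With the replicate block, LPS calls went from 4 to 12 in WT and from 2 to 5 in KO, and without the block Dex calls went from 8 and 9 to 0 and 0. The block changed no count of calls for NELF-B loss or for the genotype differences. For LPS in WT, mice A and B only gave 2 calls, libraries of that genotype only 2, median centring 7, and the block without the untreated library of WT mouse A 12, the last chosen after seeing the data. Of these 12, 8 were also called with the block on all libraries. There Polr2a and Med1 turned to -0.15 and -0.05. In KO, libraries of that genotype only gave 4. The study's thresholds left 2 Dex calls in WT and 1 in KO. With mean transcript length the span of levels per kb was 5.28, not 6.45, and, as settings chosen after seeing the data, 5.53 in WT mouse B alone and 5.06 over all 16 libraries. Why the values moved was not tested.

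Leaving out 1 library at a time gave 2 to 47 calls among the members for LPS in WT (379 to 5390 of all genes), 0 to 33 for its genotype difference (0 to 3734) and 0 to 34 for untreated NELF-B loss (0 to 4203), the high values all without the untreated library of WT mouse B, and the lone library left is then assumed to vary like the other groups. For LPS in KO it gave 2 in each case, and for Dex 4 to 7 in WT and 4 to 7 in KO, where leaving out 1 library removes its mouse. The Dex counts stood beside 703 to 845 of all genes in WT and 881 to 1165 in KO. They were lowest without mouse A in WT and without mouse C in KO. The LPS change in WT then ranged from -0.22 to 1.31 for Polr2a, -0.12 to 0.73 for Med1 and -0.05 to 1.78 for Med12. That of Polr2a in KO ranged from -0.16 to 0.05, and the genotype difference from -1.37 to 0.16 for Polr2a and -1.58 to 0.25 for Med12. Dex in KO gave -0.05 to 0.01 for Polr2a, -0.01 to 0.05 for Med1 and -0.01 to 0.08 for Med12. Untreated NELF-B loss gave -0.35 to 1.18 for Polr2a, -0.14 to 0.71 for Med1 and -0.26 to 1.57 for Med12, NELF-B loss under LPS -0.06 to 0.03 for Med12, and under LPS + Dex -0.14 to 0.01 for Med1.

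The members had 810 reads per library at the median, and Med7, at 34 reads in its lowest library, carries more counting error. The untreated library of WT mouse A had the fewest recovered reads on the listed genes (25000000), and the part of depth was not tested. LPS in WT, its genotype difference and untreated NELF-B loss all rest on 2 untreated WT libraries, 1 of which stands apart.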
